A study of Mus musculus with 15 samples.

Results

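The response of CD4+ T cells to stimulation was compared between WT and N-Ras KO mice. A response is the log2 value of a probe set on the array of stimulated cells minus its value on the control array of the same genotype and replicate number. This gave 6 pairs, 3 labelled WT and 3 labelled N-Ras KO, from 12 of the 15 arrays of the series. All mice were of the 129/SJ strain and 6 to 20 weeks of age, and the WT mice were littermates of mice carrying the knockout. CD4+ splenocytes were sorted with an antibody to CD4 and kept overnight in culture without antibodies (control) or with antibodies to CD3e and CD28, each at 1 µg/ml (stimulated). The methods state that sorted cells were divided between the conditions and also that each condition of a repetition came from another mouse. Whether a pair shares a mouse is therefore not settled by the text, and p-values measure only the spread between these pairs. The values of each genotype had been centred on the controls of that genotype, so that levels cannot be compared between WT and N-Ras KO, while responses can. For the same reason the level of Cd4 and other defining genes of the sorted cells could not be checked. Differences are given as the response in WT minus the response in N-Ras KO, on the log2 scale.

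Antibodies to CD3e and CD28 engage the T cell receptor complex and its main costimulatory receptor. The signal loads Ras proteins with GTP through exchange factors, and GTP-bound Ras starts the Raf, MEK and ERK kinase cascade, which drives immediate early transcription factors of the Egr and Fos families, while calcium and NF-kappaB act in parallel. Activated CD4+ T cells then express CD25, produce cytokines, and leave quiescence through D-type cyclins, Cdk4 and Cdk6 and the degradation of the inhibitor p27 by the ubiquitin ligase subunit Skp2.

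The Nras probe sets did not follow the labels in 2 of the 6 pairs. On probe set 1454060_a_at the control and stimulated arrays labelled WT 1 stood at -2.68 and -3.04, against 0.28 and -0.10 in WT 2 and 0.00 and 0.00 in WT 3. The arrays labelled N-Ras KO 3 stood at 2.04 and 2.09, while N-Ras KO 1 stood at 0.00 and 0.51 and N-Ras KO 2 at -0.04 and 0.08. On the controls, WT 1 was also the lowest WT array on 1422687_at (-1.61) and 1422688_a_at (-1.23), and N-Ras KO 3 the highest N-Ras KO array (1.70 and 1.21). On the stimulated arrays N-Ras KO 3 was again the highest of its genotype (1.21 and 0.80) and WT 1 the lowest on 1422688_a_at (-1.23), but on 1422687_at WT 1 (-0.14) lay above WT 3 (-0.19). All directions below thus rest on pairs labelled WT and N-Ras KO, and the pairs WT 1 and N-Ras KO 3 go against their labels within their genotype. The response of Nras itself did not pass the thresholds given below in any of its 3 probe sets (differences of 0.70 on 1422687_at, 0.22 on 1422688_a_at and -0.47 on 1454060_a_at). The first fell to 0.21 without WT 1 and to 0.07 without both WT 1 and N-Ras KO 3, and the second turned to -0.01 without N-Ras KO 3.

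Sex-linked transcripts differed between the pairs of a genotype. Xist, the RNA that silences an X chromosome (1427262_at), stood at -6.09 and -5.78 in the control and stimulated arrays of WT 1 and at -5.99 and -6.39 in those of N-Ras KO 1, and between -0.34 and 1.75 on the other 8 arrays. Eif2s3y, a Y-linked gene (1417210_at), stood at 7.86 and 7.77 in WT 1 and between -0.67 and 0.01 in WT 2 and WT 3. In the N-Ras KO arrays it stood at 2.81 and 2.86 in pair 1, 0.00 and 0.47 in pair 2 and -6.23 and -5.94 in pair 3. On these 2 probe sets the pairs of a genotype stood apart by more than the arrays of a pair did. Kdm5d, also Y-linked (1424903_at), stood at 2.62 and 2.93, 0.00 and 0.86, and -3.60 and -2.95 in N-Ras KO pairs 1, 2 and 3. The N-Ras KO pairs thus stood apart there too. Some other probe sets of Y-linked genes did otherwise. Eif2s3y on 1431642_at stood at 2.28 and 0.13 in WT 1 and at 0.00 and 1.39 in N-Ras KO 1. Uty, another Y-linked gene, stood at 1.86 and 3.78 in N-Ras KO 1 on 1459565_at and at 0.21 and 1.61 in WT 1 on 1422247_a_at, so that there the arrays of a pair differed by more than 1. Of 13 sex-linked probe sets 0 passed as different in response.

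**Figure D1:**
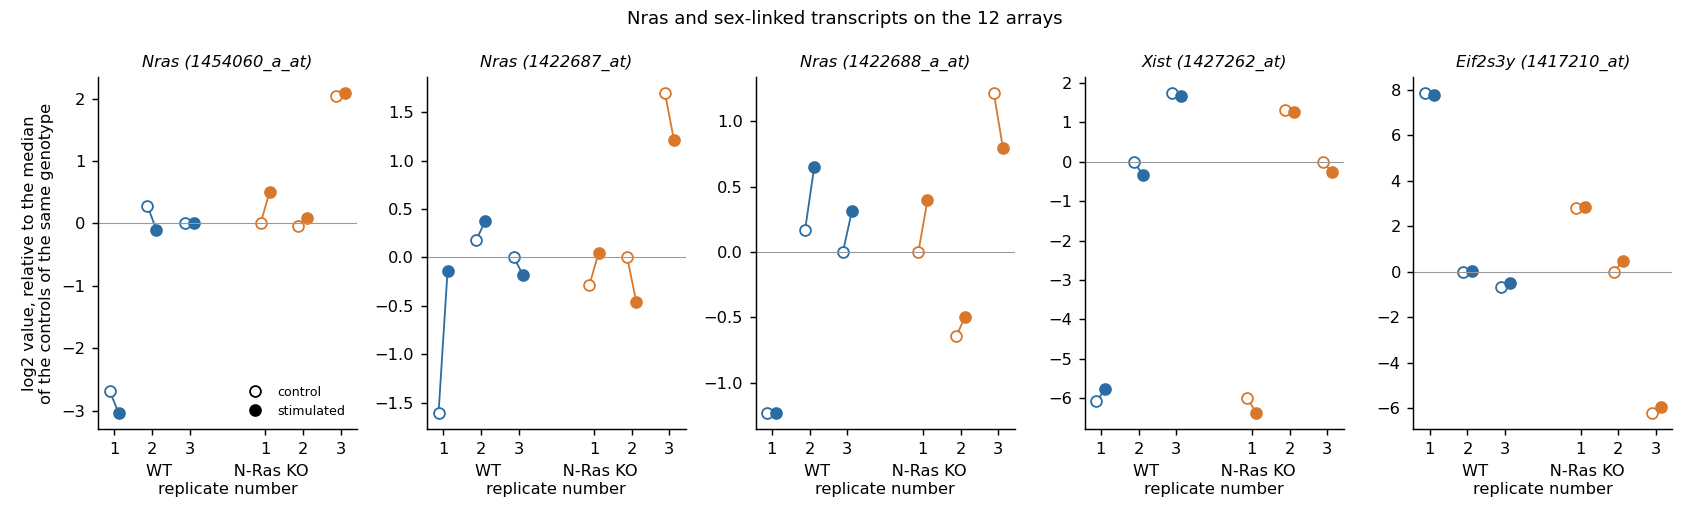
Log2 value of the 3 probe sets of Nras, 1 of Xist and 1 of Eif2s3y on each of the 12 arrays (open circles, control; filled circles, stimulated; a line joins the arrays of a pair; each panel has its own axis). Each genotype is set relative to the median of its own controls, so heights are comparable within a genotype only: on 1454060_a_at WT 1 lies below the other WT pairs, at -2.68 and -3.04, and N-Ras KO 3 above the other N-Ras KO pairs, at 2.04 and 2.09.

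Over all 45101 probe sets, limma with Benjamini-Hochberg adjustment called 0 differences of response, and the lowest adjusted p was 0.961. No gene named here therefore has an adjusted p below that value. An unadjusted p of at most 0.05 was reached by 2067 probe sets, 4.58% of those tested. At the thresholds used in the study, an unadjusted p of 0.05 and a change of 1.5-fold, 1859 probe sets passed (4.12%), with the response higher in WT for 1027 (2.28%) and lower for 832 (1.84%). "Passed" refers to these thresholds from here on, and errors are standard errors of the difference from limma. Of the 1859 probe sets, 544 also passed with each of the 6 pairs left out in turn. The 3 WT responses lay wholly above or below the 3 N-Ras KO responses for 4685 probe sets (10.4%). With means 1.5-fold apart as well there were 2344 (5.2%), higher in WT for 1246 (2.76%) and lower for 1098 (2.43%). Both passing and without overlap were 1663 (3.69%), 917 higher (2.03%) and 746 lower (1.65%). An exact permutation test of 3 pairs against 3 cannot give a p below 0.10, so it cannot add a call.

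Each genotype's own response was also without an adjusted call. The lowest adjusted p by limma was 0.981 in WT and 0.507 in N-Ras KO, and an unadjusted p of at most 0.05 was reached by 1941 (4.3%) and 3200 (7.1%) probe sets. At the study's thresholds 645 probe sets rose (1.43%) and 617 fell (1.37%) in WT, and 1017 rose (2.25%) and 1196 fell (2.65%) in N-Ras KO. The number that moved at least 2-fold in a pair was 4289, 3619 and 2483 in WT and 5606, 4340 and 6426 in N-Ras KO. The correlation between any 2 pairs over all probe sets, given as a description since genes are no replicates, lay between -0.007 and 0.126.

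**Figure D2:**
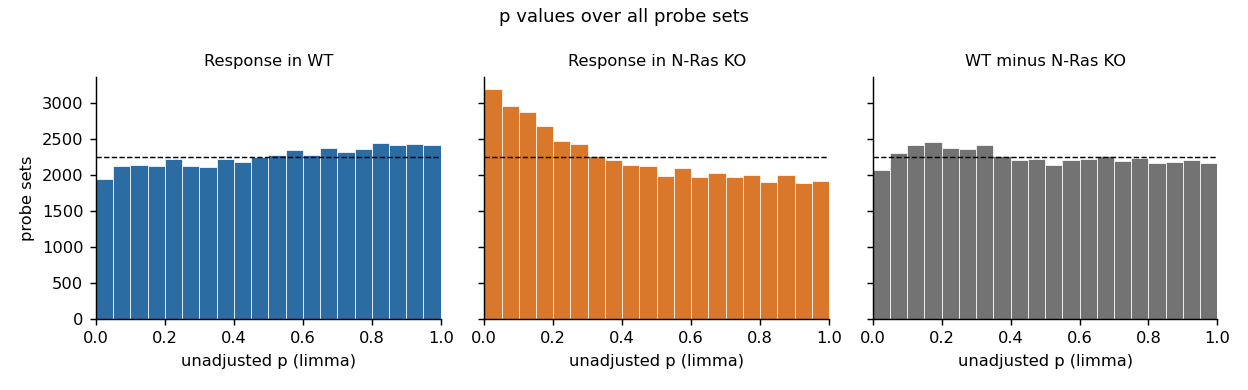
Histograms of the unadjusted limma p over 45101 probe sets in bins of 0.05, for the response in WT, the response in N-Ras KO and the difference between them; the dashed line is the mean bin height. The lowest bin holds 1941, 3200 and 2067 probe sets, so it stands above the line for the N-Ras KO response and below it for the WT response and for the difference.

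Most probe sets that passed had mean responses of opposite sign. Of the 1027 higher in WT, 883 had a mean above 0 in WT and below 0 in N-Ras KO. Of the 832 lower in WT, 732 had the reverse. These were 86% and 88% of the probe sets that passed, and 46.6% of all probe sets had means of opposite sign. A large difference by itself favours means on opposite sides of 0, so nothing is read from these shares.

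The early response to stimulation was present in both genotypes. Egr1, an ERK-driven zinc finger factor, had responses of 1.20, 0.84 and 0.97 in WT and 1.31, 0.89 and 1.03 in N-Ras KO. The groups overlapped, and the difference was -0.07 with a 95% interval from -0.59 to 0.44. Cd69, an early activation receptor, gave 1.19, 0.70 and 1.5 in WT and 1.28, 1.35 and 1.18 in N-Ras KO, a difference of -0.14 (95% interval from -0.76 to 0.48). Cd83, another activation receptor, had a difference of -0.14 and Nr4a3, an orphan nuclear receptor, of 0.30 on its most responsive probe set, neither of which passed. In all 6 pairs, with both means at least 1.5-fold, 135 probe sets were higher after stimulation (0.299%) and 132 lower (0.293%). Among the former were probe sets of Egr1, Egr2, Egr3, Nr4a1, Nr4a3, Irf4, Il21, Tnf, Spry1, Cd69 and Cd83, all of which are known to be induced by receptor stimulation. The same 135 also held Fcer2a of the B cell list, Mpeg1 of the macrophage list, Vcam1 and Adm. At the study's thresholds 9 of 51 immediate early probe sets rose in WT and 8 in N-Ras KO. For the B cell list 8 and 6 of 45 rose, against 1.43% and 2.25% of all probe sets.

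Egr2 was the only gene of the immediate early list with probe sets that passed. This zinc finger factor, which restrains T cell activation, had responses of 3.24, 2.25 and 1.89 in the pairs labelled WT and 6.76, 3.51 and 4.55 in those labelled N-Ras KO on 1427682_a_at. All 3 N-Ras KO responses lay above the 3 WT responses, with mean changes of 5.49-fold (WT) and 30.6-fold (N-Ras KO) (difference -2.48 ± 0.86 SE). The second probe set, 1427683_at, gave 3.33, 2.38 and 1.95 against 7.60, 3.25 and 5.36, with some overlap, and also passed (-2.85 ± 1.08 SE). Without WT 2 or WT 3 neither probe set passed, and the second was also lost without N-Ras KO 1 or N-Ras KO 3. With 1 pair left out the differences lay between -3.20 and -1.57 and between -3.93 and -1.75. Nr4a1, an orphan nuclear receptor induced by receptor signal strength, gave 2.13, 2.03 and 2.49 against 2.58, 2.88 and 5.41. Its groups did not overlap, N-Ras KO 3 stood apart, and the difference did not pass (-1.40 ± 0.75 SE). Of the 51 probe sets of 28 immediate early genes, 0 passed as higher in WT and the 2 of Egr2 as lower (3.92% against 4.12% of all probe sets), with a median difference of -0.07 against -0.01 over all probe sets. Fos (0.34), Jun (0.98 and 0.02), Junb (0.16) and Egr3 (-0.98 and 0.07) did not pass.

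The Ras proteins and the proximal machinery gave few differences that passed. Of 13 probe sets of 6 Ras GTPase genes 0 passed, with a median difference of -0.03, and Rras, an R-Ras family member, had the smallest p (-0.57 ± 0.24 SE, without overlap). Of 42 probe sets of the T cell receptor complex and its proximal kinases and adaptors, which include the CD3 chains and Lck, 0 passed. Of 36 probe sets of exchange factors and GTPase-activating proteins, 1 passed as lower in WT (2.78% against 4.12% of all). It belonged to Rasgrp2, a calcium-regulated exchange factor (1417804_at), which gave -0.36, -0.80 and -0.36 in WT and 0.31, -0.08 and 0.46 in N-Ras KO (difference -0.74 ± 0.24 SE). Its other 3 probe sets did not pass, and the call was lost without WT 2, N-Ras KO 1 or N-Ras KO 3, the difference lying between -0.89 and -0.59 with 1 pair left out.

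Of 28 probe sets of Raf, MEK and ERK kinase genes, 3 passed as higher in WT and 0 as lower (10.7% against 4.12% of all), with a median difference of 0.21. They were Araf, a Raf kinase (1445693_at, 1.14 ± 0.45 SE), Map2k2, which encodes MEK2 (1460636_at, 1.04 ± 0.37 SE), and Ksr1, a scaffold of the cascade (1442581_at, 0.79 ± 0.29 SE). For each of them the other probe sets of the gene did not pass, and 4 of the 6 pairs, left out singly, ended the call. The lowest differences with 1 pair left out were 0.81 for Araf, 0.76 for Map2k2 and 0.58 for Ksr1.

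Among 35 probe sets of negative regulators and transcriptional outputs of ERK, 3 passed as higher in WT and 0 as lower (8.57% against 4.12% of all). Spred1, an inhibitor of Raf activation, supplied 2 of them, with differences of 0.64 and 0.81, and 7 of its 8 probe sets had a difference above 0. Each of the 2 calls was lost with 5 of the 6 pairs left out singly and held only without N-Ras KO 1 for 1423161_s_at (0.49 to 0.82 with 1 pair left out) and without N-Ras KO 2 for 1443652_x_at (0.55 to 1.07). Dusp16, a phosphatase of JNK and p38 (1418401_a_at), gave 1.12, 0.45 and -0.43 in WT and -0.78, -1.01 and -1.52 in N-Ras KO (1.48 ± 0.44 SE), while its other probe set had a difference of -0.70 and did not pass. Dusp5, a nuclear ERK phosphatase, gave 0.84, 0.70 and 1.14 in WT and -0.15, 0.23 and 0.66 in N-Ras KO, without overlap and without passing (0.65 ± 0.27 SE). Spry1 (-0.51), Dusp6 (0.29) and Dusp4 (-0.31), which are feedback inhibitors of the pathway, did not pass.

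The alpha and beta chains of the IL-2 receptor had probe sets with a higher response in WT. Il2ra, which encodes CD25, gave 1.79, 1.02 and 2.85 in WT and 0.21, 0.27 and 0.77 in N-Ras KO on 1420692_at. The lowest WT response lay above the highest N-Ras KO response, with mean changes of 3.70-fold and 1.33-fold (difference 1.47 ± 0.48 SE). The second probe set of Il2ra gave 1.92, 0.59 and 2.48 against 0.90, 0.03 and 1.31, overlapped, and did not pass (0.92 ± 0.57 SE). Without N-Ras KO 1 or N-Ras KO 2 the first lost its call too, its difference lying between 0.99 and 1.90 with 1 pair left out. Il2rb, the signalling beta chain, passed on both of its probe sets. On 1417546_at it gave 0.33, 0.64 and 0.58 in WT and -0.48, -0.16 and -0.85 in N-Ras KO, so that every WT pair went up and every N-Ras KO pair went down (1.01 ± 0.24 SE). This call held with each pair left out, at 0.84 to 1.18. The other probe set, 1448759_at (0.69 ± 0.22 SE), lost its call without WT 2, N-Ras KO 2 or N-Ras KO 3, at 0.59 to 0.84. Of the 33 probe sets of 19 activation receptor genes, 3 passed as higher in WT and 0 as lower (9.09% against 4.12% of all), and the median difference was -0.04. Tnfrsf9, the costimulatory receptor 4-1BB, was split between probe sets, at 1.13, -0.72 and -0.07, none of which passed. Tnfrsf4 (0.53), Icos (-0.04 to 0.14) and Ctla4 (-0.29), all costimulatory or inhibitory receptors of activated T cells, did not pass either.

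Cytokine and chemokine genes responded by a median of 0.75 in WT, against 0.24 in N-Ras KO. By pair the medians were 0.39, 0.50 and 0.96 in WT and 0.01, 0.45 and 0.34 in N-Ras KO, so that the genotypes overlapped. Of their 26 probe sets, 4 passed as higher in WT and 1 as lower (19.2% against 4.12% of all), and the median difference was 0.38 against -0.01 over all probe sets. Lta, which encodes lymphotoxin alpha (1420353_at), gave 0.68, 0.81 and 0.78 in WT and -0.67, -0.21 and -0.62 in N-Ras KO. The WT responses lay within a narrow band above 0 and every N-Ras KO response lay below 0 (difference 1.25 ± 0.21 SE, 2.39-fold), and the call held with each pair left out (1.17 to 1.40). Ccl5, a chemokine of effector cells (0.93 ± 0.31 SE), Il17a, the cytokine of Th17 cells (0.86 ± 0.28 SE), and Tnfsf11, which encodes RANKL (0.74 ± 0.30 SE), also passed as higher in WT. Each of these 3 calls was lost when any of 3 to 5 single pairs was left out, the lowest differences being 0.67, 0.69 and 0.58.

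Il10 had the larger response in N-Ras KO. This anti-inflammatory cytokine (1450330_at) gave 0.90, -0.13 and 0.31 in WT and 1.53, 2.63 and 3.20 in N-Ras KO. The groups did not overlap, with mean changes of 1.28-fold (WT) and 5.47-fold (N-Ras KO) (difference -2.09 ± 0.49 SE), and the call held with each pair left out (-2.55 to -1.72). Il2, the T cell growth factor, gave 2.57, 1.47 and 2.46 in WT and -1.58, 1.29 and 1.90 in N-Ras KO. N-Ras KO 1 stood apart at its negative value, and the difference did not pass (1.63 ± 0.93 SE). Tnf (0.01), Ifng (-1.26), Il4 (-0.78), Il21 (1.47 and -0.83) and Ccl22 (1.23) did not pass.

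**Figure D3:**
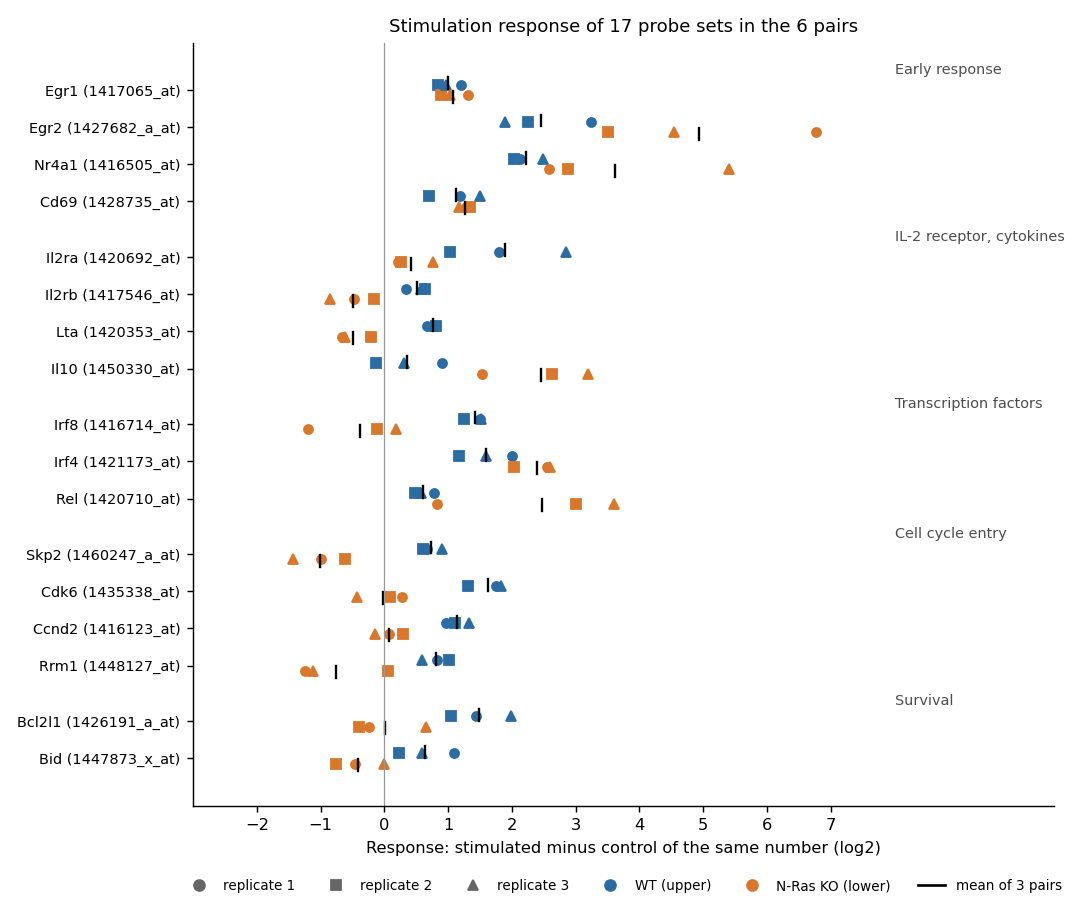
Response, stimulated minus control on the log2 scale, of 17 genes in the 6 pairs, each on the probe set with its smallest p; WT is drawn above N-Ras KO in each row, the symbol gives the replicate number and the short black line the mean of 3 pairs. Egr1 and Cd69 overlap between genotypes, Skp2, Lta and Il2rb lie above 0 in the 3 WT pairs and below 0 in the 3 N-Ras KO pairs, and Egr2 and Il10 lie highest in N-Ras KO.

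Transcription factors of activation differed in both directions. Irf8, an interferon regulatory factor (1416714_at), gave 1.5, 1.24 and 1.51 in WT and -1.20, -0.11 and 0.18 in N-Ras KO, without overlap (difference 1.80 ± 0.39 SE, 3.48-fold). Its other probe set had a difference of 0.77 and did not pass. Irf4, the related factor that follows receptor signal strength (1421173_at), gave 2.00, 1.18 and 1.60 in WT and 2.54, 2.03 and 2.59 in N-Ras KO. It was thus higher after stimulation in all 6 pairs, and the pairs labelled N-Ras KO lay above those labelled WT (-0.80 ± 0.29 SE), while its second probe set, at -1.04, did not pass. The first lost its call without WT 2, WT 3, N-Ras KO 1 or N-Ras KO 3, at -1.0 to -0.59. Maf, a factor known to promote IL-10 production (-0.85 ± 0.33 SE), and Ikzf2, which encodes Helios (-0.92 ± 0.30 SE), passed as lower in WT on 1 of 6 and 1 of 3 probe sets. Both calls were lost with 4 or 5 single pairs left out, at differences as small as -0.52 and -0.71. Over the 43 probe sets of this list, 1 passed as higher in WT and 3 as lower (9.3% against 4.12% of all).

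In the NF-kappaB list 2 of 32 probe sets passed as higher and 2 as lower (12.5% against 4.12% of all). Rel, the subunit c-Rel (1420710_at), gave 0.78, 0.48 and 0.58 in WT and 0.82, 3.01 and 3.60 in N-Ras KO. N-Ras KO 1 lay next to the WT pairs while the other N-Ras KO pairs stood far above (difference -1.86 ± 0.71 SE), and the call held only when N-Ras KO 1 was the pair left out, with differences from -2.69 to -1.30 over the 6 omissions. Nfkbie, which encodes the inhibitor IkappaB epsilon, passed as higher in WT on both of its probe sets. On 1431843_a_at it gave -0.02, 0.80 and 0.54 in WT and -1.07, -0.52 and -0.44 in N-Ras KO (1.11 ± 0.30 SE), and on 1458299_s_at the difference was 0.83 ± 0.25 SE. The second was lost without WT 2 or WT 3, at 0.70 to 1.01. Ikbkb, an IkappaB kinase, passed as lower in WT on 1 of 5 probe sets (-0.86 ± 0.32 SE), a call lost without WT 1, WT 3 or N-Ras KO 2 (-1.03 to -0.57).

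Skp2, Cdk6 and Ccnd2, which act at entry into the cell cycle, had higher responses in WT on 8 of their 16 probe sets. Of 47 probe sets of the 19 genes of p27, Skp2 and the G1 cyclins and their kinases, 9 passed as higher in WT and 0 as lower (19.1% against 4.12% of all), and 33 had a difference above 0, against 22126 of all 45101 probe sets. The median difference of the list was 0.13. This list, like the others, was chosen with earlier results of these data known, and the study names Skp2 from these arrays. Its share is therefore a description and not independent evidence, and several calls are of probe sets of the same gene. The 9 belonged to Skp2 (3 of its 6 probe sets), Cdk6 (3 of 3), Ccnd2 (2 of 7) and Cdkn1c (1 of 1), the last of which encodes the inhibitor p57 and was lost without WT 2 or WT 3 (0.70 to 1.18). Within WT, 10 probe sets of the list rose after stimulation and 0 fell, while in N-Ras KO 1 rose and 4 fell.

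Skp2, the subunit of the ligase that targets p27, gave 0.67, 0.61 and 0.91 in WT and -1.0, -0.61 and -1.43 in N-Ras KO on 1460247_a_at. All WT responses were above 0 and all N-Ras KO responses below it, a mean change of 1.66-fold up and 2.02-fold down (difference 1.75 ± 0.26 SE). The call held with each pair left out, the difference staying between 1.54 and 1.95. On 1436000_a_at the responses were 1.47, 0.29 and 0.61 against -0.55, -0.87 and -1.30, again without overlap (1.70 ± 0.37 SE). On 1437033_a_at they were 1.39, 0.82 and 0.80 against 0.66, -0.94 and -2.17 (1.82 ± 0.70 SE), a call that was lost when any pair but N-Ras KO 1 was left out (1.14 to 2.56). The other 3 probe sets had differences between 0.04 and 0.54 and did not pass. Cdkn1b, which encodes p27 itself, had differences of -0.07 on both of its probe sets, with 95% intervals from -0.51 to 0.37. Cks1b, the Skp2 cofactor, did not pass (0.57 and 0.24), nor did Cdk4, the other kinase partner of D-type cyclins (0.07 to 0.23).

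Cdk6, the kinase partner of D-type cyclins, gave 1.75, 1.31 and 1.83 in WT and 0.28, 0.08 and -0.44 in N-Ras KO on 1435338_at. The WT pairs lay well above the N-Ras KO pairs, with mean changes of 3.09-fold (WT) and 1.02-fold (N-Ras KO) (difference 1.65 ± 0.27 SE), and the call held with each pair left out (1.45 to 1.81). The other Cdk6 probe sets, with differences of 1.27 and 1.12, overlapped between genotypes and lost their calls without any of 4 single pairs, at 0.98 to 1.74 and 0.88 to 1.52. Ccnd2, which encodes cyclin D2, gave 0.96, 1.11 and 1.33 in WT and 0.07, 0.29 and -0.14 in N-Ras KO on 1416123_at, so that the groups did not overlap (1.06 ± 0.21 SE). Its 1455956_x_at probe set also passed (0.79 ± 0.23 SE), and the other 5 had differences between -0.13 and 0.70. With the 12 arrays taken as unpaired the 3 Skp2 probe sets still passed, whereas those of Cdk6, Ccnd2, Lta, Irf8, Il10, Il2ra and Il2rb did not.

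The sequence before the start of 5 of these genes is shown because they differed in opposite directions, Egr2 and Irf4 with larger responses in N-Ras KO and Skp2, Cdk6 and Lta with larger responses in WT. The 250 bases before a start of each gene are from RefSeq, build GRCm38.p6, written 5′ to 3′ on the strand of the gene. They span chr10:67537619-67537868 (+ strand) for Egr2, chr13:30748983-30749232 (+) for Irf4, chr15:9140455-9140704 (-) for Skp2, chr5:3343643-3343892 (+) for Cdk6 and chr17:35205352-35205601 (-) for Lta. Capitals mark matches to sites of factors that ERK signalling acts through: the CArG box of serum response factor, the AP-1 site TGANTCA and the cAMP response element TGACGTCA. Each reads the same on both strands, and no AP-1 site matches the cAMP response element.
Egr2: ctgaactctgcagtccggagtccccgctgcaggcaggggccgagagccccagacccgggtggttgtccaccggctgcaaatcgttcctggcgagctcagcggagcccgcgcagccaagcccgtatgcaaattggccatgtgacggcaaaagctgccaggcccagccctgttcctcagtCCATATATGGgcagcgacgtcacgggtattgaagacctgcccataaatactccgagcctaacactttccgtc
Irf4: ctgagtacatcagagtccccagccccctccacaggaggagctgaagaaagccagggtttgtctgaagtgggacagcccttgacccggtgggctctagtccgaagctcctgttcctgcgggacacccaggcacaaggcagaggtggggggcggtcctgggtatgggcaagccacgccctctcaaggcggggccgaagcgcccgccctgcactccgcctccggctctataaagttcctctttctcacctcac
Skp2: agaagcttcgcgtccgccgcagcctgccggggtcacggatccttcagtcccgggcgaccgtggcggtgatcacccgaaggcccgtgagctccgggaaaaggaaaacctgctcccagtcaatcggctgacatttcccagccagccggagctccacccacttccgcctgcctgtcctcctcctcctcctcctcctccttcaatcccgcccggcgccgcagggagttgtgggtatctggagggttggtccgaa
Cdk6: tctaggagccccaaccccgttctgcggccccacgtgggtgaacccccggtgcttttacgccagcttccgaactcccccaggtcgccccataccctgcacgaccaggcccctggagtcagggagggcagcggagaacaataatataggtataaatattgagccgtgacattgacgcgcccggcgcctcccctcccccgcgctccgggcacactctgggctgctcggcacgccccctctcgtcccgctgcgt
Lta: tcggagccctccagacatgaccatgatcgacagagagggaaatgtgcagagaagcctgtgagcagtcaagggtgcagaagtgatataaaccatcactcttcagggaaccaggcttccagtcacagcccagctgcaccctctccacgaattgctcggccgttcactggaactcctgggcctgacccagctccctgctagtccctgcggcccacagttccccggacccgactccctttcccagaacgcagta
The Egr2 window held 1 CArG box, and the other 4 windows held none of the 3 motifs in these letters. Among all 32851 windows of that length in the table, 1.47% held a CArG box, 6.75% an AP-1 site and 1.55% the cAMP response element. The Egr2 and Skp2 genes have further annotated starts, whose windows are not printed. In the table, 4 of the 5 Egr2 windows held a CArG box and that at chr10:67535249-67535498 held none, and the other Skp2 window, at chr15:9155426-9155675, held none of the 3 motifs. The Egr2 windows starting at 67537619, 67537620 and 67537680 overlap and hold the same CArG box, while that starting at 67537316 holds another.

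Of 54 probe sets of DNA replication genes, 4 passed as higher and 1 as lower in WT (9.26% against 4.12% of all). Rrm1, the large subunit of ribonucleotide reductase (1448127_at), gave 0.82, 1.02 and 0.58 in WT and -1.24, 0.06 and -1.12 in N-Ras KO (difference 1.57 ± 0.39 SE), while its other 2 probe sets, at 0.10 and -0.03, did not pass. Gins1, a subunit of the replicative helicase, passed on both of its probe sets. On 1452598_at it gave 1.45, 0.95 and 0.97 against -0.53, -0.26 and -2.06 (2.07 ± 0.50 SE), and on the other the difference was 0.97 ± 0.32 SE, lost without WT 2 or WT 3 (0.70 to 1.21). Cdc45, a partner of the same helicase, passed on 1 of 2 probe sets (0.77 ± 0.30 SE, 0.54 to 0.98 with 1 pair left out). Rfc5, a clamp loader subunit, gave -0.03, -0.04 and 0.07 in WT and 0.39, 1.76 and 1.10 in N-Ras KO, and passed as lower in WT (-1.08 ± 0.36 SE, -1.43 to -0.74). The calls of Cdc45 and Rfc5 were each lost with 4 single pairs left out.

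Mitotic genes were mixed, with 2 of 50 probe sets higher in WT and 3 lower (10% against 4.12% of all). Racgap1, which acts in cytokinesis (1421546_a_at), gave 1.36, 1.27 and 0.51 in WT and -0.42, -0.75 and -2.60 in N-Ras KO (difference 2.30 ± 0.61 SE), and its other 2 probe sets, at 1.03 and 0.14, did not pass. Ttk, the spindle checkpoint kinase MPS1, passed as lower in WT on both of its probe sets (-0.74 ± 0.22 SE and -1.11 ± 0.42 SE). The first was lost without WT 3 and the second without WT 3 or any N-Ras KO pair, at differences as small as -0.60 and -0.67. Mki67, the proliferation marker Ki-67, had a difference of 0.61 on the probe set with its smallest p and did not pass.

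In the Bcl2 family, which sets the threshold of apoptosis, 3 of 42 probe sets passed as higher in WT and 0 as lower, which was 7.14% against 4.12% of all. A difference above 0 was found in 34 of them (median 0.20), against 22126 of all 45101 probe sets. Bcl2l1, which encodes the anti-apoptotic Bcl-xL (1426191_a_at), gave 1.44, 1.05 and 1.98 in WT and -0.23, -0.40 and 0.65 in N-Ras KO. The WT pairs all lay higher, with mean changes of 2.81-fold and 1.00-fold (difference 1.48 ± 0.38 SE). A second Bcl2l1 probe set, 1420888_at, had no overlap either but did not pass (0.70 ± 0.30 SE). Bid, a pro-apoptotic member, passed on 2 of 3 probe sets (1.96 ± 0.61 SE and 1.04 ± 0.32 SE). The first lost its call without WT 1, WT 2 or N-Ras KO 3 (1.52 to 2.46), and the second without N-Ras KO 2 (0.82 to 1.25). In the list of p53 and DNA damage genes 2 of 34 passed as higher and 0 as lower (5.88%). Phlda3, a p53 target that restrains Akt, gave 1.15, 0.72 and 0.76 in WT and -0.66, -1.27 and -2.54 in N-Ras KO, with opposite signs throughout (2.37 ± 0.49 SE, 5.16-fold).

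Lists of growth and biosynthesis had small median differences. Ribosome biogenesis had 35 of 47 probe sets with a difference above 0 and a median of 0.18, with 3 higher and 0 lower in WT (6.38%). Over all probe sets 22126 of 45101 were above 0 and 4.12% passed. Ncl, which encodes nucleolin (1415772_at), gave 1.47, 1.90 and 0.89 in WT and -0.02, 0.04 and -0.66 in N-Ras KO (difference 1.63 ± 0.34 SE), but its other 4 probe sets had differences between 0.01 and 0.43. The proteasome list had 42 of 54 above 0, with 3 higher and 1 lower (7.41%). Psmc4, an ATPase of the regulatory particle, passed on both of its probe sets (1.06 and 0.82), calls lost without WT 1, WT 2 or N-Ras KO 3 (0.79 to 1.34 and 0.62 to 1.01). Chaperones had 46 of 58 above 0, with 3 higher and 0 lower (5.17%), 2 of them of Cct4, a chaperonin subunit (1.60 and 1.25), whose other 5 probe sets lay between 0.04 and 0.10.

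The list of Myc, nutrient uptake and glycolysis genes had 2 of 41 probe sets higher and 2 lower in WT (9.76% against 4.12% of all). Hk2, the inducible hexokinase, gave 1.97, 1.10 and 2.13 in WT and 0.43, -0.18 and 1.31 in N-Ras KO, with some overlap (difference 1.22 ± 0.47 SE). Slc2a3, a glucose transporter, passed as lower in WT on 1 of 4 probe sets (-1.07 ± 0.42 SE). Both lost their calls without any of 4 single pairs, at 0.86 to 1.61 and -1.39 to -0.75. Pgam1 (0.74) also passed as higher in WT, and Pfkp passed as lower on 1 of its 3 probe sets. Myc, the driver of growth in activated T cells, gave 0.91, 1.66 and 1.46 in WT and 0.02, 0.01 and 1.21 in N-Ras KO, with overlap through N-Ras KO 3, and did not pass (0.93 ± 0.41 SE). Satb1, a chromatin organiser of T cells in the list of resting genes, passed as lower in WT on 1 of 5 probe sets (-1.71 ± 0.52 SE), lost without WT 3 (-2.27 to -1.35 with 1 pair left out), and the other 4 had differences between -0.31 and 0.09. The Satb1 call was the only one among the 50 probe sets of that list (2% against 4.12% of all).

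**Figure D4:**
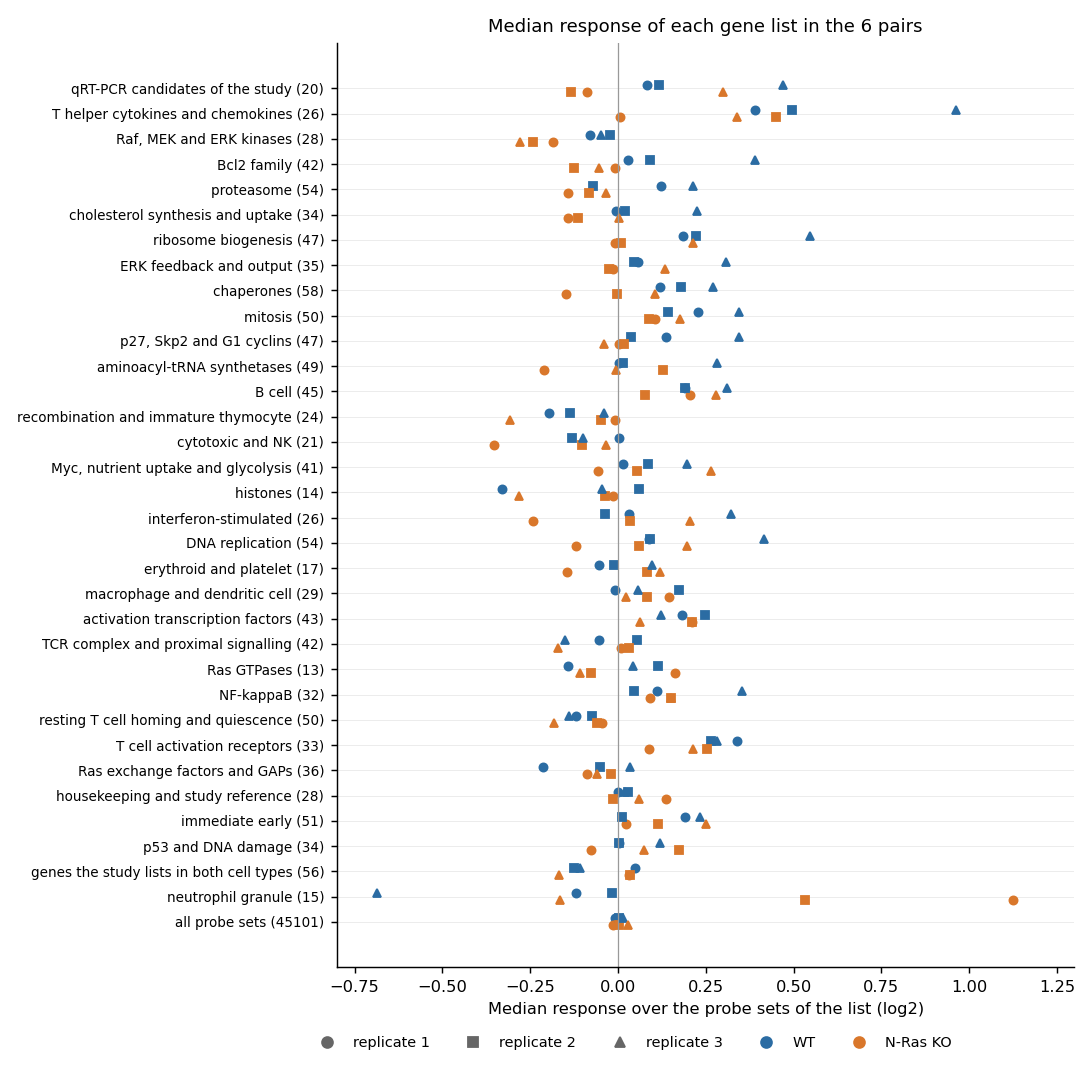
Median response over the probe sets of each gene list in each of the 6 pairs (log2; number of probe sets in brackets; blue, WT; orange, N-Ras KO; the symbol gives the replicate number), with lists ordered by the median difference and all probe sets at the bottom. Neutrophil granule genes come lowest in that order, with 1.12 and 0.53 in N-Ras KO 1 and N-Ras KO 2.

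Markers of other cells moved with some pairs. Of 15 probe sets of neutrophil granule genes, 14 had a difference below 0 and the median was -1.18. The median response was -0.12, -0.02 and -0.69 in WT and 1.12, 0.53 and -0.16 in N-Ras KO, so that N-Ras KO 1 and N-Ras KO 2 stood above the others. Chil3, a secreted protein of granulocytes and macrophages, gave -3.25, -0.02 and -1.14 in WT and 1.12, 3.53 and 1.06 in N-Ras KO (difference -3.37 ± 1.02 SE). Ltf, which encodes lactoferrin, was the other member that passed (-1.89 ± 0.71 SE), and its call was lost when any pair but N-Ras KO 3 was left out (-2.57 to -1.13). Of 45 B cell probe sets, Fcer2a, which encodes CD23, passed as higher in WT (1.41 ± 0.45 SE) while Ebf1, a B lineage factor (-0.90 ± 0.26 SE), and Blnk, a B cell adaptor (-1.57 ± 0.60 SE), passed as lower. In the list of cytotoxic and NK cells Fasl, the death ligand (1.5 ± 0.46 SE), and Ctsw, a cathepsin (0.76 ± 0.26 SE), passed as higher in WT. Cd8a did so on 1 of 5 probe sets (1.37 ± 0.50 SE). Of the 21 probe sets of this list only 11 had a difference above 0, and the median was 0.09. Gzma (-1.10), Ncr1 (-0.93) and Gzmk (-0.75) were among those below 0 and did not pass. The shares that passed were 13.3% of the neutrophil, 6.67% of the B cell and 14.3% of the cytotoxic list, against 4.12% of all probe sets. Of these markers, Fcer2a (0.97 to 1.66), Blnk (-1.99 to -0.89), Fasl (1.19 to 1.92), Ctsw (0.55 to 0.90) and Cd8a (0.99 to 1.88) lost their calls with between 2 and 4 single pairs left out. Macrophage and dendritic cell genes had 1 of 29 lower, and erythroid and platelet genes 0 of 17. The values are centred and hold no absolute level, so the amount of any of these cells cannot be read from them, and fewer cells of a type cannot be told apart from less RNA per cell. The part of these markers in the differences described above was not tested.

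The genes with the largest differences lay mostly outside the lists. Tlr7, the endosomal receptor for single-stranded RNA, gave -0.22, 1.76 and 1.54 in WT and -4.58, -1.56 and -3.75 in N-Ras KO on 1449640_at (difference 4.32 ± 0.90 SE). Probe set 1419848_x_at gave a like difference, 4.40, but the third had a difference of -0.66 and did not pass, so the probe sets of Tlr7 disagreed. Lad1, an anchoring filament protein, gave 2.10, 1.76 and 3.78 in WT and -0.20, 0.41 and 0.02 in N-Ras KO (2.47 ± 0.55 SE). Kmo, an enzyme of tryptophan breakdown, gave 0.12, 1.15 and 0.50 in WT and -2.52, -1.77 and -1.18 in N-Ras KO (2.41 ± 0.43 SE). In both genes all WT pairs lay above all N-Ras KO pairs, though only Kmo went down in every N-Ras KO pair. Kynu, of the same pathway as Kmo, gave 3.22, 3.56 and 2.25 against -1.72, 0.17 and 1.40 on 1 of 2 probe sets (3.06 ± 0.82 SE), the other being at 0.07. Among those lower in WT, Lpcat2, which makes platelet-activating factor, gave -0.25, -0.70 and -0.14 in WT and 1.58, 4.46 and 2.93 in N-Ras KO (-3.36 ± 0.71 SE), with its other probe set at 0.48. Pik3r3, a regulatory subunit of PI3 kinase, gave -0.98, -1.03 and -0.01 against 1.15, 3.09 and 2.32 (-2.86 ± 0.56 SE). These calls of Tlr7, Lad1, Kmo, Kynu, Lpcat2 and Pik3r3 held with each pair left out. For Klhdc10 and Phf20l1, at 3.24 and 3.25, another probe set of the gene passed in the opposite direction (-0.82 in both).

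The study named some genes from its own comparisons of these arrays, and their counts are therefore not independent evidence. It compared levels in stimulated cells between the genotypes and left out genes that changed with stimulation. That is another measure than the difference of responses given here. Of 20 probe sets of 7 genes it tested by qRT-PCR, 2 passed as higher in WT and 1 as lower (15% against 4.12% of all). Chst1, a sulphotransferase, gave -0.56, -0.64 and -0.84 in WT and 0.12, 0.07 and 0.37 in N-Ras KO, with opposite signs throughout (-0.87 ± 0.19 SE), and its call held with each pair left out. In its comparison of stimulated levels the study reported Chst1 as upregulated by N-ras, the direction opposite to that of the response here. The 2 that passed as higher in WT were Ncl, above, and Mbnl3, a splicing regulator. Mbnl3 gave 0.87, 1.10 and 1.19 against -0.43, -0.54 and 0.83 (1.10 ± 0.40 SE). The call of Mbnl3 held only when N-Ras KO 3 was the pair left out (0.86 to 1.54). Among 56 probe sets of 15 genes listed for both cell types, 6 passed as higher in WT, of which 3 were of Skp2 and 2 of the zinc finger gene Zfp106 (1.60 ± 0.33 SE and 1.58 ± 0.46 SE). The 1 that passed as lower was of the splicing factor Srrm1 (-0.83 ± 0.25 SE), lost without WT 2 (-1.01 to -0.70), and the 7 made 12.5% of this list.

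**Figure D5:**
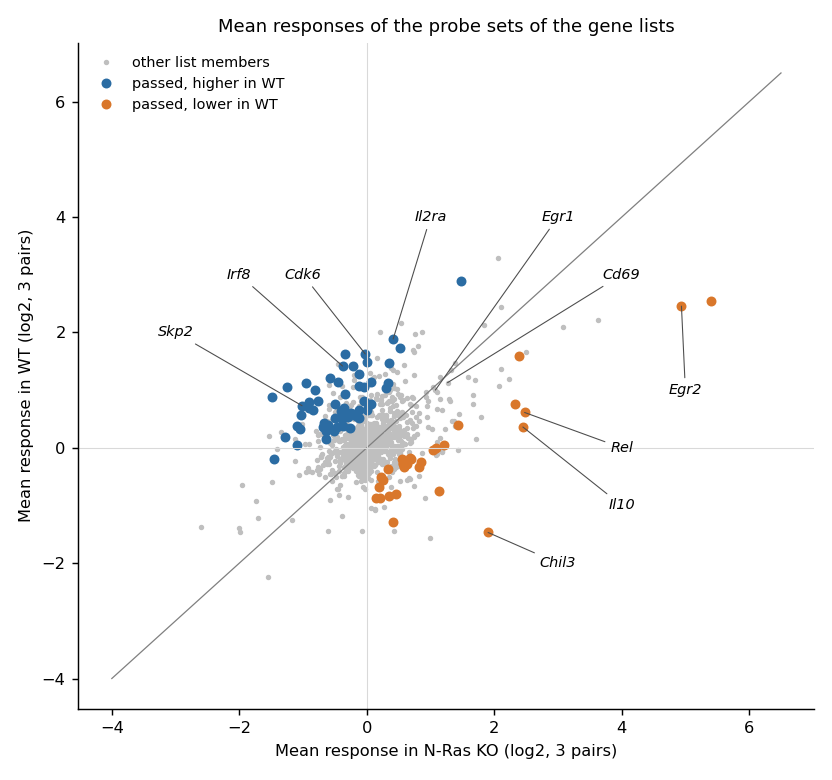
Mean response in WT against mean response in N-Ras KO (log2, each over 3 pairs) for the probe sets of all gene lists but the sex-linked one; the diagonal marks equal responses, blue points passed as higher in WT and orange points as lower; a thin line joins a gene's name to its probe set with the smallest p. Egr1 and Cd69 lie close to the diagonal near 1, Skp2 lies above it with 0.73 in WT, and Egr2 lies below it at 2.46 in WT and 4.94 in N-Ras KO.

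Where a gene has several probe sets, they seldom passed together. Of 9010 genes with at least 2 probe sets, every probe set passed as higher in WT for 19 and as lower for 6. Named after their values were seen, the genes of the lists among these were Cdk6, Il2rb, Gins1, Nfkbie and Psmc4 above and Egr2 and Ttk below. Without WT 1 and N-Ras KO 3, the pairs whose Nras values go against their labels, 2545 probe sets passed, 1231 higher and 1314 lower in WT. Skp2 (1.57), Cdk6 (1.38), Ccnd2 (1.04), Lta (1.24), Il2rb (0.93), Irf8 (2.04), Bcl2l1 (1.83) and Il10 (-1.99) still passed on the first probe set described for each, whereas Egr2 (-3.06 and -3.26), Il2ra (1.70), Rrm1 (1.39), Rasgrp2 (-0.69) and Rel (-1.39) did not.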

How the data were processed

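Affymetrix arrays of CD4+ T cells were analysed from 1 deposited table of 45101 probe sets on 12 arrays. The deposited values are log2 expression: per the methods, the authors ran RMA with quantile normalization in GeneSpring and then set each probe set relative to its control median, and the submitters' processing notes name RMA. In the file, the median of the 3 controls was 0 for all 45101 probe sets in each genotype, so each genotype was centred separately. The values hold no brightness, so dim probe sets were not filtered, and precision is set by how many arrays there are. The table of 3 thymocyte arrays was not used here.

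Stimulated minus control values were formed per genotype and replicate number and fitted by limma (version 3.58.1; R 4.3.3), using lmFit and eBayes with two-sided tests. The p-values were adjusted by the Benjamini-Hochberg method across the 45101 probe sets, with the unadjusted thresholds of the study (p of 0.05, 1.5-fold) as a second count. Intervals are at the 95% level. The script was tested on simulated data. Pairing rests on the data: deviations of same-numbered control and stimulated arrays correlated between 0.361 and 0.738, those of differently numbered arrays between -0.496 and 0.227. The numbers did not pair WT with N-Ras KO (-0.621 to -0.117).

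Probe sets were named from GEO's platform annotation, updated through gene identifiers to RefSeq symbols (34945 with 1 gene, 932 with several, 9211 with none; control probe sets stayed unnamed). Of 604 list entries, 52 had no probe set under that name and were not analysed here. Genes were drawn from several kinds, and not every gene of a kind is named. The first kind was up to 15 per direction with the largest differences among probe sets that passed without overlap. Lad1, Kmo and the other genes with large differences are examples of it. The second was up to 4 per list with the smallest p. Others were members of the immediate early, ERK feedback, activation receptor and Ras GTPase lists, genes the study names, and Nras and sex-linked genes. Some further list members, such as Cdkn1b, are given beside these. The members, lists and rules were chosen with earlier results of these data known. Interferon-stimulated, histone, recombination, cholesterol, aminoacyl-tRNA synthetase and housekeeping lists gave 0 and 0, 0 and 1, 2 and 0, 1 and 1, 2 and 2, and 0 and 2 probe sets higher and lower in WT. In the same order they held 26, 14, 24, 34, 49 and 28 probe sets. The shares that passed were 0%, 7.14%, 8.33%, 5.88%, 8.16% and 7.14%, against 4.12% of all probe sets. The housekeeping list includes Lrrfip1, which the study used as its qRT-PCR reference for a fold change of about 1 in its comparisons. It passed as lower in WT on 1 of its 3 probe sets, with differences from -0.805 to -0.085. Alternatives covered the pairing, the normalization, array weights, a robust prior, probe set filters, the fold threshold, the methods' t-test and leaving out pairs.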

Additional observations from a re-analysis of the deposited data

How the results depend on the processing

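No alternative gave a difference with an adjusted p below 0.05, so calls rest on unadjusted p, and 3 pairs a genotype limit every value. The count of 1859 probe sets (1027 higher and 832 lower in WT) became 583 (300 and 283) with no replicate block, that is, with 12 unpaired arrays in 4 groups, and 2248 with the replicate block across genotypes. It became 1016 (570 and 446) with the methods' t-test, of which 0 passed Benjamini-Hochberg, 1087 (628 and 459) after quantile normalization again, 744 (438 and 306) with 1 probe set per gene, 990 (541 and 449) without the probe sets that varied less than the median and 1004 (552 and 452) at 2-fold. The exact permutation test gave 0 (0 and 0), since its p cannot go below 0.10. With 1 pair left out the count lay between 1500 and 2632, with 632 to 1280 lower in WT. Without both WT 1 and N-Ras KO 3 there were 1314 lower. Probe sets without overlap at 1.5-fold numbered 1519 after quantile normalization, 881 with 1 per gene, 1089 at 2-fold, 3805 to 4949 with 1 pair left out and 7176 without those 2 pairs, by construction more with fewer pairs.

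The response in WT passed for 1262 probe sets and for 469 with no replicate block, 487 with the methods' t-test, 527 with 1 per gene and 460 at 2-fold. The response in N-Ras KO passed for 2213, and for 1057, 518, 830 and 984 under the same alternatives and 1290 after quantile normalization. Of 106 named probe sets that passed, 39 did with no replicate block, 72 after quantile normalization, 100 with array medians subtracted and 64 to 79 with 1 pair left out. Tfrc 1422966_a_at, at -0.36, was the one named probe set that reversed: it gave 1.33 without N-Ras KO 2, whose response was 4.97 there, and -1.26 without N-Ras KO 1. The cause of the other changes was not tested.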
